A study of Mus musculus with 12 samples.

Results

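The ubiquitin C-terminal hydrolases are cysteine proteases that cleave bonds at the C-terminal end of ubiquitin, and *Ubb* encodes ubiquitin itself as a polyubiquitin precursor. The 5 genes described here are *Uchl1*, *Uchl3*, *Uchl5*, *Bap1* and *Ubb*, out of 27179 genes in the count table. They were picked by name, with their values in these muscles known, and each was found by its NCBI Gene ID. All 5 passed the filter on low counts, as did 15502 genes in all. *Ubb* is not a hydrolase but a source of their substrate, so the 5 genes are a family of enzymes together with 1 ubiquitin gene.

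The counts came from tibialis anterior (TA) muscles of 6 male wild-type C57BL/6N mice, which were 6 to 8 weeks old on arrival and were used within 2 weeks. In each mouse, 1 TA received 10 μg of unmodified pcDNA3.1(+) plasmid (Control) and the other TA received 10 μg of the same plasmid carrying full-length human *FRAIL1*, a long noncoding RNA (FRAIL1), both by electroporation after hyaluronidase. Muscles were taken on day 7, and their poly(A) RNA was sequenced. *FRAIL1* is a human transcript and has no row in the mouse table, so its level was not measured here. Electroporation does not reach every fiber of a muscle, all cells of the TA were sampled together, and fewer cells of a type cannot be told apart from less RNA per cell.

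Total counts per muscle were 45018389 to 59309210 in Control and 44848322 to 60527385 in FRAIL1. FRAIL1 muscle 5 stood apart from the rest, at 49.5 on the first principal component where the next muscle was at 20.99 and Control muscles were between -20.2 and -9.44. Values without it are given below for each of the 5 genes. Of the 15502 genes, 974 passed a Benjamini-Hochberg adjusted p of 0.05 in the quasi-likelihood test of edgeR, which is 6.28%. Of these, 687 were higher in FRAIL1 (4.43%) and 287 were lower (1.85%). With a term for the mouse, 2186 passed, of which 1159 were higher (7.48%) and 1027 lower (6.62%). DESeq2 without that term called 2211, of which 1272 were higher and 939 lower. In edgeR without the term, 4297 of the 15502 genes had an unadjusted p under 0.05.

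Ubiquitin is joined to proteins by a chain of E1, E2 and E3 enzymes and is removed by deubiquitinases, of which the C-terminal hydrolases are 1 family. UCHL1 is abundant in neurons and is used as a marker of nerve fibers in tissue sections. UCHL3 also cleaves the ubiquitin-like modifier NEDD8, UCHL5 works on the proteasome and in the INO80 chromatin remodeler, and BAP1 is a nuclear tumor suppressor that removes ubiquitin from histones.

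Sequences are shown first for the genes whose counts depend on telling near-identical copies apart, because only uniquely mapped reads were counted. *Uchl3* has a close intronless relative in the mouse, *Uchl4*. Their coding sequences, read from GENCODE M21 transcripts, were identical at 672 of 699 aligned positions (96.1%), and the longest identical stretch was 145 bases, against a read length of 150 bases. The first 120 coding bases hold 4 differences, in capitals.
Uchl3: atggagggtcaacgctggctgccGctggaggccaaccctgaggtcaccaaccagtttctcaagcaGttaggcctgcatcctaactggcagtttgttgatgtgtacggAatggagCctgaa
Uchl4: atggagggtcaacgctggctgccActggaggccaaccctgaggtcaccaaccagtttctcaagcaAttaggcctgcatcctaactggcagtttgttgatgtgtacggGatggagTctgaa
Of the 150-base windows of the longest coding model of *Uchl3*, 0.133% also occurred in *Uchl4*, so nearly every whole read could be assigned. *Uchl1* was more distant, with 59.3% of aligned coding positions shared with *Uchl3*.

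*Ubb* holds 4 ubiquitin units of 228 bases in a row, which were 95.6% to 99.1% identical to each other. Unit 1 and unit 4 of *Ubb* are printed to show how little separates them, with the bases of unit 4 that differ in capitals.
Ubb unit 1: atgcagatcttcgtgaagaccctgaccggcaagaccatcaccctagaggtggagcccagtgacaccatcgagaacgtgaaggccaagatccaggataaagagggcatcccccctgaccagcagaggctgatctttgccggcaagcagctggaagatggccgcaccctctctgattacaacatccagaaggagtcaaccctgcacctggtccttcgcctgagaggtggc
Ubb unit 4: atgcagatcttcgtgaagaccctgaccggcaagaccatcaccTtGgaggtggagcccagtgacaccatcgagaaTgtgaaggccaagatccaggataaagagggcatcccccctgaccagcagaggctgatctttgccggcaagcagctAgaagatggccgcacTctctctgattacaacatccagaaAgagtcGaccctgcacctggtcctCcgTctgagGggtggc
In *Ubb*, 49.4% of 150-base windows were not unique among mouse transcripts. Of all its windows, 13.0% recurred within *Ubb* and 40.8% occurred in other genes such as *Gm1821*. How much of the counts of *Ubb* was lost to this was not tested, so its level is uncertain.

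*Uchl1* stood out among the 5 genes by its difference between the muscles. The gene lies on chr5:66676121-66687234 of GRCm38, on the plus strand, and had 261 to 1182 counts per muscle. Its level in Control muscles was 5.48 CPM (counts per 1000000, scaled by edgeR's TMM factors) at the lowest, 7.13 at the median and 8.22 at the highest. In FRAIL1 muscles the lowest level was 15.9 CPM, the median 21.1 CPM and the highest 22.9 CPM. The 2 groups did not overlap, with muscles 2 and 3 the lowest of the FRAIL1 muscles and muscle 1 the highest.
The mean was 6.98 ± 1.05 CPM in Control and 20.1 ± 2.87 CPM in FRAIL1 (SD, n = 6 muscles each), a fitted log2 fold change of 1.53 (SE 0.115), or 2.88-fold. The FRAIL1 side exceeded the Control side in all 6 mice, by 1.08 to 2.02 on the log2 scale. It ranked 83 of 15502 genes by log2 fold change. Without FRAIL1 muscle 5, the log2 fold change was 1.50. The spread of *Uchl1* was similar in both groups, with a coefficient of variation of 15.0% in Control and 14.3% in FRAIL1, and muscle 5 was not its highest. An antisense gene, *Uchl1os*, shares 295 exonic bases with *Uchl1* (18.1% of its joined exons), and the sources used here do not state whether counting used the strand.

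*Uchl3*, on chr14:101653892-101696125, had a smaller difference in the same direction. Its level was 5.17 to 6.94 CPM in Control, with a median of 6.30 CPM, and 5.76 to 8.09 CPM in FRAIL1, with a median of 7.25 CPM. The groups overlapped, although *Uchl3* was higher on the FRAIL1 side in all 6 mice. The means were 6.13 ± 0.654 and 7.08 ± 0.831 CPM (SD, n = 6 each), with a log2 fold change of 0.21 (SE 0.102) that was 0.26 without FRAIL1 muscle 5. Its relative *Uchl4* was at 9.28 ± 0.659 CPM in Control and 9.24 ± 0.712 CPM in FRAIL1 (log2 fold change -0.0051, SE 0.0756, edgeR adjusted p = 0.975). *Uchl4* was higher in 3 of 6 mice and lower in the others, and the difference between *Uchl3* and *Uchl4* was not tested.

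*Uchl5*, the hydrolase of the proteasome cap, lies on chr1:143777234-143807466. It ranged from 26.3 to 32.1 CPM in Control, with a median of 27.5 CPM, and from 28.9 to 32.9 CPM in FRAIL1, with a median of 29.9 CPM. The ranges overlapped over most of their width. The means were 28.5 ± 2.28 and 30.3 ± 1.47 CPM (SD, n = 6 each), with a log2 fold change of 0.091 (SE 0.0596) that was 0.081 without FRAIL1 muscle 5, and *Uchl5* was higher in 5 of 6 mice.

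*Bap1*, on chr14:31251352-31259930, was the hydrolase with a lower level in FRAIL1 muscles. Control muscles ranged from 81.1 to 93.6 CPM, with a median of 86.6 CPM, and FRAIL1 muscles from 66.9 to 84.3 CPM, with a median of 75.5 CPM. The groups overlapped, with FRAIL1 muscles 2 and 3 inside the Control range and muscle 5 the lowest of all. The means were 86.9 ± 5.31 and 76.3 ± 6.77 CPM (SD, n = 6 each), with a log2 fold change of -0.19 (SE 0.0661). All 6 mice had less *Bap1* on the FRAIL1 side, and leaving out FRAIL1 muscle 5 gave a log2 fold change of -0.15.

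*Ubb*, on chr11:62551171-62553213, had nearly the same range in both groups except in 1 muscle. Control muscles ranged from 93.0 to 112 CPM, with a median of 99.8 CPM, and FRAIL1 muscles from 79.4 to 112 CPM, with a median of 97.1 CPM. The lowest value was in FRAIL1 muscle 5 and the highest in FRAIL1 muscle 6. The means were 102 ± 7.20 and 96.2 ± 10.5 CPM (SD, n = 6 each), with a log2 fold change of -0.078 (SE 0.0754). It was -0.030 without FRAIL1 muscle 5, and *Ubb* was higher in 3 of 6 mice and lower in 3.

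**Figure D1:**
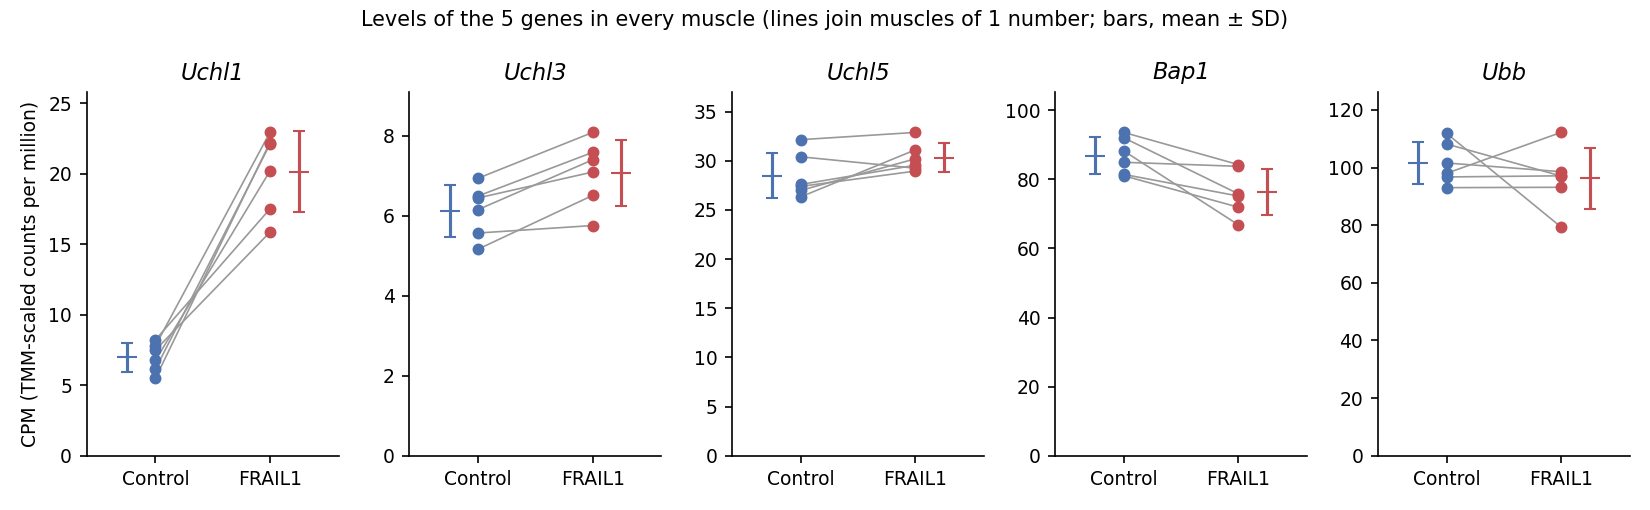
Level of each of the 5 genes in every muscle, in CPM on axes that start at 0, with Control in blue and FRAIL1 in red. Grey lines join the muscles of 1 number and bars give the mean ± SD of 6 muscles. The 6 FRAIL1 values of *Uchl1* (15.9 to 22.9 CPM) all lie above the 6 Control values (5.48 to 8.22 CPM), while the groups overlap for the other 4 genes.

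By the test across all genes, 1 of the 5, *Uchl1*, was called, where 6.28% of all genes were. *Uchl1* was also the 1 gene of the 5 whose groups did not overlap, as was the case for 757 genes in all (4.88%). Since the genes were chosen with this contrast known, nothing is read from these counts.

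The ratio within each mouse shows how the genes varied among themselves. For *Uchl1* the smallest ratios were in mice 2 and 3 and the largest in mice 4 and 5, and the smallest of them, 1.08 on the log2 scale, was still above every ratio of the other 4 genes. The largest ratio of *Uchl3* was 0.33, that of *Uchl5* 0.24 and that of *Ubb* 0.20. Mouse 5 had the lowest ratio of *Bap1* (-0.40) and of *Ubb* (-0.50), and the highest of *Uchl5*.

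**Figure D2:**
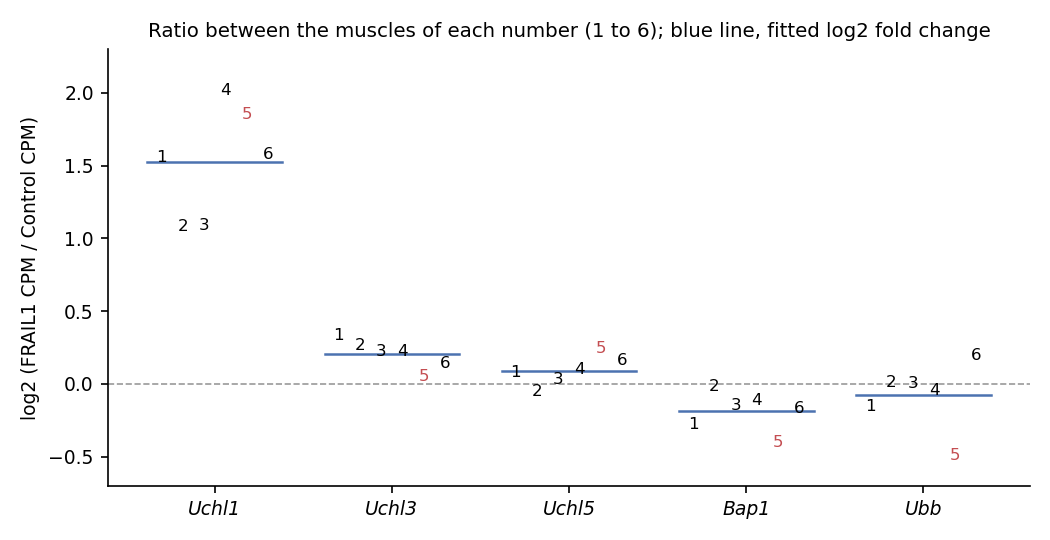
Log2 ratio of FRAIL1 to Control CPM between the muscles of each number, printed as the numbers 1 to 6 with 5 in red, for each of the 5 genes. The blue line is the fitted log2 fold change and the dashed line is no difference. The ratios of *Uchl1* lie between 1.08 and 2.02, and those of the other 4 genes lie between -0.50 and 0.33.

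Levels between genes were compared per length of their joined exons, as RPKM (the CPM divided by the length in kilobases), in Control muscles. *Ubb* was the highest at 60.6 ± 4.30 RPKM (SD, n = 6), followed by *Bap1* at 18.6 ± 1.13 RPKM and *Uchl5* at 9.75 ± 0.779 RPKM. *Uchl1* was at 4.28 ± 0.641 RPKM and *Uchl3* at 1.60 ± 0.171 RPKM. No neighbours in this order overlapped among the 6 Control muscles.
The last step of the order rests on the length used. *Uchl3* has long annotated exons outside its coding transcripts, and with the longest protein-coding transcript as the length it was at 6.56 ± 0.699 RPKM and *Uchl1* at 5.93 ± 0.888 RPKM (SD, n = 6 each), with ranges that overlapped. In FRAIL1 muscles, over joined exons, *Uchl1* was at 12.3 ± 1.76 RPKM and *Uchl5* at 10.4 ± 0.504 RPKM (SD, n = 6 each), and the ranges of 9.72 to 14.1 RPKM and 9.91 to 11.3 RPKM overlapped. *Uchl1* made up 12.5% ± 1.25 of the summed RPKM of the 4 hydrolases in Control and 30.2% ± 4.10 in FRAIL1 (SD, n = 6 each). *Bap1* made up 54.3% ± 1.82 and 39.9% ± 3.49. These are parts of 1 sum, so a rise of *Uchl1* lowers the share of *Bap1*, whose own mean was 18.6 RPKM in Control and 16.3 RPKM in FRAIL1. With the longest protein-coding transcript as the length, the shares of *Uchl1* were 11.1% and 27.1%, and those of *Bap1* 47.4% and 34.9%.

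**Figure D3:**
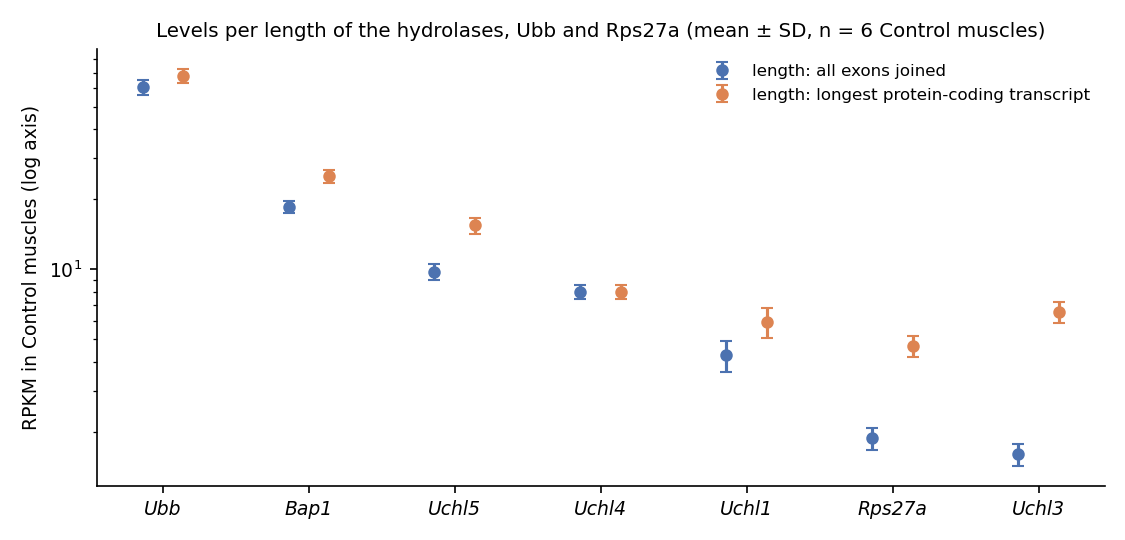
Levels per length in the 6 Control muscles, as RPKM on a log axis, of the hydrolases, *Ubb* and *Rps27a*, as mean ± SD. Blue uses the length of all exons joined and orange the longest protein-coding transcript. *Ubb* is the highest with both lengths (60.6 and 67.7 RPKM), and *Uchl1* and *Uchl3* change places between them.

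Of the other genes that supply ubiquitin, *Rps27a* encodes ubiquitin fused to a ribosomal protein. It was at 3.70 ± 0.390 CPM in Control and 4.20 ± 0.586 CPM in FRAIL1 (SD, n = 6 each, log2 fold change 0.18, SE 0.117, edgeR adjusted p = 0.330) and was higher in 4 of 6 mice. In *Rps27a*, 51.9% of read-length windows also occurred in other genes, so its level is uncertain too.

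The partners of the hydrolases gave 1 call among 13 genes tested by edgeR, where 6.28% of all genes were called. With a term for the mouse 1 rose and 1, *Foxk2*, fell, and DESeq2 called 1 in each direction. Those fits also called more of all 15502 genes, 2186 and 2211. *Mbd6*, a methyl-CpG-binding domain protein of the BAP1 complexes, rose from 22.2 ± 1.03 to 26.3 ± 2.44 CPM (SD, n = 6 each, log2 fold change 0.24, SE 0.0644, edgeR adjusted p = 0.0396), in 6 of 6 mice, and this call was lost in 9 of 12 fits that leave out 1 muscle. *Asxl1* and *Asxl2*, the cofactors of BAP1 on histones, had log2 fold changes of -0.071 and 0.054 (edgeR adjusted p = 0.631 and 0.663). *Adrm1*, the proteasome receptor that binds UCHL5, was at 31.6 ± 1.84 CPM in Control and 31.5 ± 4.73 CPM in FRAIL1 (edgeR adjusted p = 0.980). The other deubiquitinases of the proteasome, *Usp14* and *Psmd14*, had log2 fold changes of 0.10 and 0.028 (edgeR adjusted p = 0.405 and 0.761). *Nedd8*, the modifier that UCHL3 processes, did not pass, at 25.6 ± 2.06 and 29.1 ± 2.41 CPM, although 4 of 6 mice had more of it on the FRAIL1 side (log2 fold change 0.19, edgeR adjusted p = 0.0996).

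Of 82 deubiquitinase genes outside the 5, 78 were tested by edgeR, of which 3 rose and 2 fell, next to 4.43% and 1.85% of all genes. Their median log2 fold change was -0.052, with 28 of 78 above 0, where the median of all genes was 0.0096. *Usp20*, a deubiquitinase that binds the von Hippel-Lindau protein, rose from 19.2 ± 0.904 to 28.3 ± 4.09 CPM (log2 fold change 0.56, edgeR adjusted p = 0.00265). *Usp11*, a relative of *Usp4* and *Usp15*, rose from 4.32 ± 0.368 to 7.24 ± 1.49 CPM (log2 fold change 0.74, edgeR adjusted p = 0.00694). In both, the groups did not overlap, and the same held for *Usp5*. In all, the groups did not overlap in 4 of the 78 genes, next to 4.88% of all genes. *Usp5*, which takes apart free ubiquitin chains, rose by 0.17 on the log2 scale (SE 0.0460, edgeR adjusted p = 0.0452) in 6 of 6 mice. *Usp10* fell by 0.29 (SE 0.0723, edgeR adjusted p = 0.0326) and *Usp34* fell by 0.31 (SE 0.0845, edgeR adjusted p = 0.0428), each in 6 of 6 mice. The calls of *Usp20* and *Usp11* stood with each of the 12 muscles left out in turn, while those of *Usp5*, *Usp10* and *Usp34* were lost in 10, 7 and 9 of these 12 fits. With a term for the mouse, 4 of the 78 rose and 9 fell, next to 7.48% and 6.62% of all genes in that fit.

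All 5 calls without a term for the mouse were in the USP family, to which 47 of the 78 tested genes belong. The other lists are short, where 6.28% of all genes were called, and a difference between families was not tested. None of 15 OTU deubiquitinases and none of 15 genes of the MJD, JAMM, MINDY and ZUP1 families passed edgeR's test, and DESeq2 called 0 and 1. An unadjusted p under 0.05 was found for 3 and 4 of them, next to 4297 of all 15502 genes. With a term for the mouse, 3 OTU genes fell (*Otub2*, *Otud6b* and *Otud7b*), and of the other families *Stambpl1* rose and *Mindy1* fell. In that fit 7.48% of all genes rose and 6.62% fell. *Usp26* had no count in any muscle. Among 33 E1 and E2 enzymes, *Ube2q2*, which transfers activated ubiquitin, fell by 0.29 on the log2 scale (SE 0.0738, edgeR adjusted p = 0.0347) in 5 of 6 mice, and none rose. In the fit with a term for the mouse 3 fell (*Ube2b*, *Ube2q2* and *Ube2r2*), and DESeq2 called 2 lower. Of all 15502 genes, 1027 and 939 were lower in these fits. Of 10 ubiquitin-like modifiers none passed edgeR's test or DESeq2's, and 1 had an unadjusted p under 0.05. The call of *Ube2q2* was lost in 9 of the 12 fits that leave out 1 muscle.

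**Figure D4:**
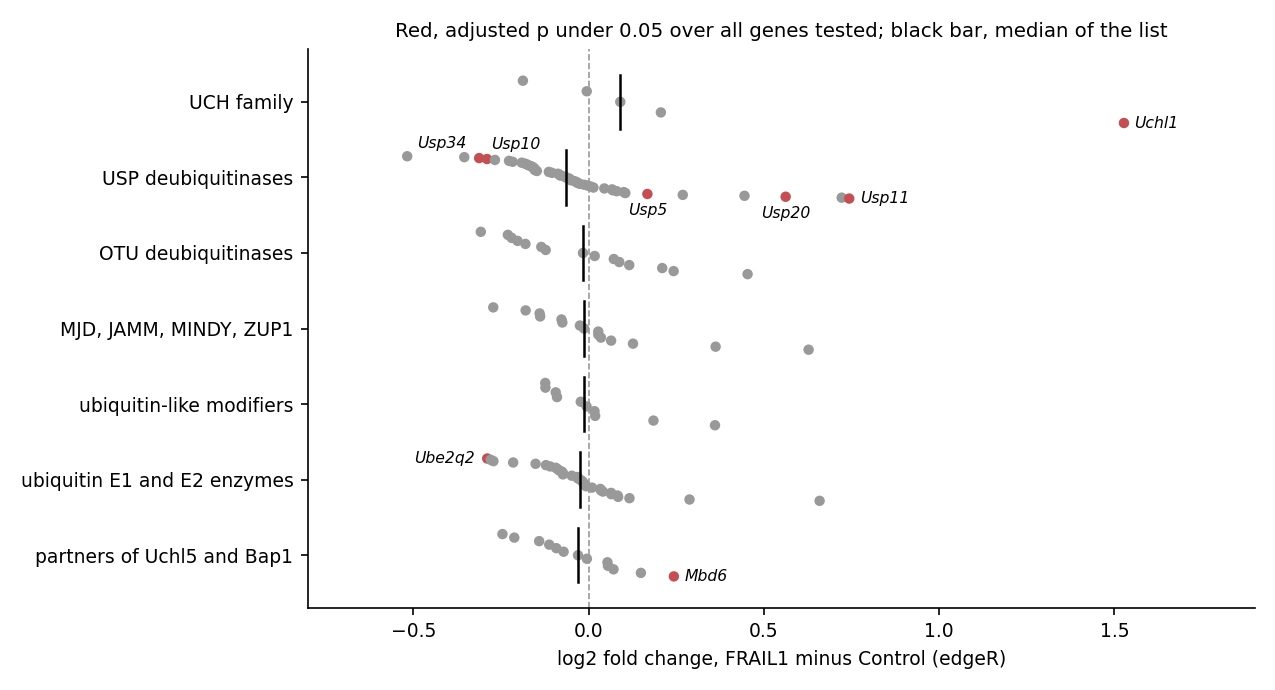
Log2 fold change (FRAIL1 minus Control, by edgeR) of each tested gene in 7 lists of deubiquitinases, modifiers, enzymes and partners. Red points passed an adjusted p of 0.05 over all 15502 genes, grey points did not, and black bars give each list's median. *Uchl1* lies at 1.53 and the other red points lie between -0.31 and 0.74.

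Since UCHL1 marks neurons, genes of nerve and of other cell types were counted beside it. These are mRNA levels in the muscle, and the amount of nerve in it was not measured. Over all genes, 4.43% rose and 1.85% fell in edgeR, and 4297 of 15502 had an unadjusted p under 0.05. Of 13 neuronal markers, 12 were tested and none passed in edgeR or DESeq2, with 0 at an unadjusted p under 0.05. All 12 had a log2 fold change below 0, with a median of -0.11. That median was -0.12 without FRAIL1 muscle 5 alone and 0.00018 without both muscles numbered 5. Their summed level was 15.3 to 33.3 CPM in Control and 12.7 to 27.3 CPM in FRAIL1, *Chat* was at most 0.0535 CPM, and *Elavl4* at most 0.395 CPM. Of 10 Schwann cell markers none passed in edgeR, 4 had an unadjusted p under 0.05 and DESeq2 called 2 in each direction, with sums of 73.5 to 134 CPM in Control and 61.2 to 96.9 CPM in FRAIL1. *Ngfr* rose and *Prx* fell in the fit with a term for the mouse.

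Most of the genes that mark denervated muscle fibers rose. Of 9 tested, 6 rose in edgeR and none fell (5 rose without FRAIL1 muscle 5), with a median log2 fold change of 1.22 and sums of 87.5 to 133 CPM in Control and 194 to 346 CPM in FRAIL1. They were *Chrna1*, *Chrng* and *Chrnd*, which encode subunits of the acetylcholine receptor, the myogenic factor *Myog*, the adhesion molecule *Ncam1*, and *Runx1*. Of 8 markers of satellite cells and regenerating fibers, 3 rose (*Myh3*, *Myh8* and *Mymk*) and none fell, with sums of 189 to 239 CPM and 341 to 1529 CPM. *Pax7*, *Myf5* and *Myod1* did not pass in this fit, and with a term for the mouse they were among 6 that rose. The highest sum was in FRAIL1 muscle 5, mostly from *Myh3* (541 CPM) and *Myh8* (876 CPM), and the median FRAIL1 sum was 573 CPM. None of 8 macrophage markers passed in edgeR (6 at an unadjusted p under 0.05, 5 called by DESeq2 and 5 with a term for the mouse), with sums of 210 to 331 CPM and 266 to 705 CPM. None of 6 fibroblast markers passed in edgeR (4 at an unadjusted p under 0.05, 2 called by DESeq2), with sums of 950 to 1818 CPM and 1936 to 4990 CPM. Here too the highest sum was in FRAIL1 muscle 5, mostly from *Col1a1* (1969 CPM) and *Col3a1* (2531 CPM). The median FRAIL1 sum was 2042 CPM, and log2 fold changes ran from 0.019 (*Dcn*) to 1.04 (*Col1a1*). None of 5 endothelial markers passed in edgeR (3 at an unadjusted p under 0.05, 1 called lower by DESeq2), with sums of 406 to 502 CPM and 337 to 432 CPM and a median log2 fold change of -0.18. With a term for the mouse 2 of them, *Kdr* and *Egfl7*, fell, and without FRAIL1 muscle 5 1 fell. Of 8 markers of adult fibers, *Ckm* fell and none rose in edgeR, while 2 fell with a term for the mouse, 4 fell in DESeq2, 2 fell without FRAIL1 muscle 5 and none passed without both muscles numbered 5. All 8 were abundant, with *Mb* the lowest at 1406 CPM in 1 FRAIL1 muscle. The part of these cells and fiber states in the difference of *Uchl1* was not tested.

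The genes most like *Uchl1* over the 12 muscles were found by the root mean square difference of log2(CPM + 0.5) after each gene's Control mean was subtracted. They were *Ncam1* (0.272), *Chrna1* (0.288), *E2f2*, a cell cycle transcription factor (0.296), the imprinted noncoding RNA *H19* (0.311) and *Ddc*, the aromatic amino acid decarboxylase (0.317). The other 4 of the 5 genes were at 0.942 for *Uchl3*, 0.988 for *Uchl5*, 1.12 for *Ubb* and 1.19 for *Bap1*. The median of all genes was 1.06. Because each gene's Control mean was subtracted, this measure mostly follows the size of the difference between the groups. Genes with little difference therefore lie far from *Uchl1* by construction. Whether genes varied together among the muscles of 1 group was not tested. *H19* was the most abundant of the 5 like genes, at 1567 ± 130 CPM in Control and 4750 ± 1943 CPM in FRAIL1. All 5 were highest in FRAIL1 muscle 5, where *Uchl1* was not, and *Ncam1* reached 66.5 CPM there against 30.5 to 45.6 CPM in the other FRAIL1 muscles.

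**Figure D5:**
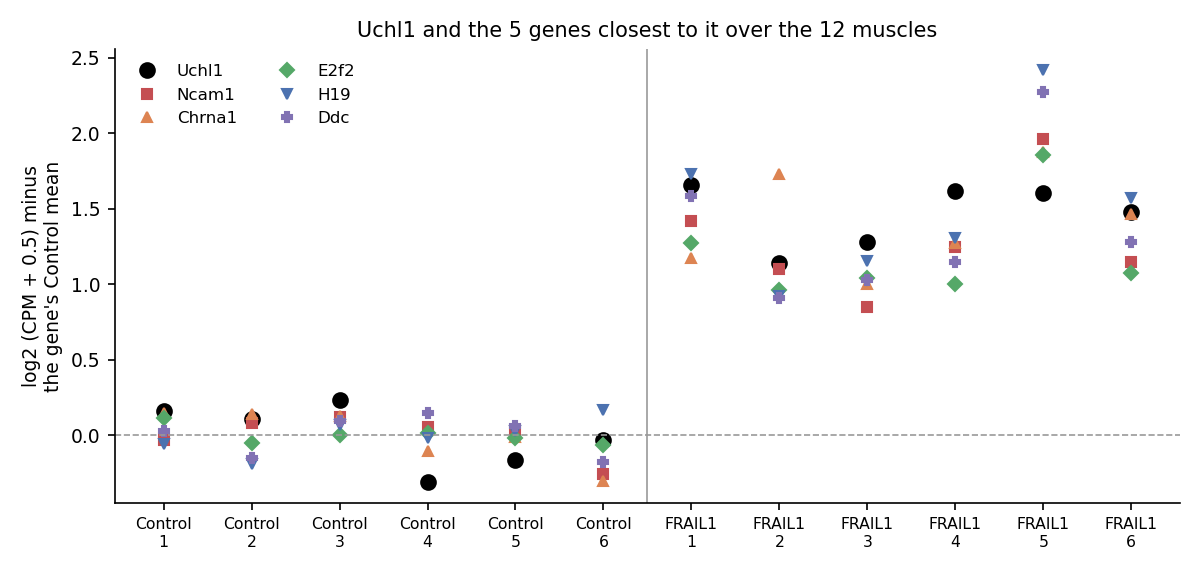
Log2(CPM + 0.5) minus the gene's own Control mean, in each of the 12 muscles, for *Uchl1* (black circles) and the 5 genes closest to it. Control values lie near 0 and FRAIL1 values near 1 or above, and in FRAIL1 muscle 5 *Uchl1* lies below the 5 other genes.

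The promoter of *Uchl1* is shown because it is the gene with the large difference. The 250 bases before its start, from RefSeq on GRCm38.p6 (chr5:66675871-66676120, plus strand), hold 1 match of the motif GAANNTTC, in capitals, at position -162.
Uchl1 promoter: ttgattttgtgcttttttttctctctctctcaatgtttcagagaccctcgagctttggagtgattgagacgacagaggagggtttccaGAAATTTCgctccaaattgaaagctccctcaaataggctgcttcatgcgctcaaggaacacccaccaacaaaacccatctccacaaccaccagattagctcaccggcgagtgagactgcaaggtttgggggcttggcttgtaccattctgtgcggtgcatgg
On both strands, GAANNTTC occurred in 6.69% of 32851 mouse promoters cut the same way. The E-box letters CANNTG did not occur in this window of *Uchl1*, and occurred once in those of *Uchl3*, *Uchl5*, *Bap1* and *Ubb* and in 66.2% of all promoters. CCAAT occurred once, in the window of the first *Ubb* start (33.8% of all), and TATAAA in none of the 5 genes (12.4% of all). The window of *Uchl1* was also the poorest of the 5 in CG dinucleotides, with 7, against 15 in *Uchl3*, 30 in *Uchl5*, 43 in *Bap1*, 30 at the first *Ubb* start and a median of 6 over all promoters.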

How the data were processed

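Per the labels and the study's methods, the authors trimmed 150-base paired-end reads from poly(A) RNA with Trimmomatic, mapped them to mm10 with STAR 2.7.8a and counted uniquely mapped reads per gene with featureCounts 2.0.1. The deposited values are these raw counts, whole numbers without normalization, for 27179 NCBI Gene IDs. The annotation release and strand setting are not given in the sources used here. Symbols were matched for 25275 genes, and the others held 0.280% of counts. No muscle's counts were a copy of another's (chi-square over degrees of freedom at least 14.5 for each pair of 1 group).

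From the counts, edgeR 4.0.16 in R 4.3.3 fitted the 12 muscles without a mouse term (filterByExpr, TMM scaling, robust quasi-likelihood test, Benjamini-Hochberg over 15502 genes, threshold 0.05), after checks on simulated data. Each SE is the size of the log2 fold change divided by the square root of its F statistic in this fit. DESeq2 1.42.0, other scalings and filters, a mouse term and leaving out each muscle were alternatives. Lengths and transcripts came from GENCODE M21 (GRCm38) and promoters from RefSeq. Read-length windows were called not unique where the same 150 bases, on either strand, occurred more than once among the transcripts.

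The design states that each mouse gave 1 muscle of each kind, and muscles of the same number were taken as those of 1 mouse. Over all genes, deviations of same-numbered muscles from their group means correlated at 0.322, 0.197, 0.350, 0.321, 0.0723 and 0.228 for numbers 1 to 6. The mean for other pairs was -0.0496. Subtracting the group means nearly fixes that value once the same-numbered correlations are given, so it is not a separate baseline. The 5 genes and all gene lists were chosen with earlier results of these data known. Genes named beyond the 5 are those of the lists that passed the threshold (at most 8 per list and direction), genes of the pathway fixed by name (some of which are not reported here), and the 5 genes most like *Uchl1*.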

Additional observations from a re-analysis of the deposited data

Results flagged for a closer look

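Of 44 groups of 6 muscles examined (22 genes in both groups), 4 held 1 muscle far from the others by Dixon's ratio, and chance flags about 1 in 20 groups. None of these was in *Uchl1*, *Uchl3*, *Uchl5*, *Bap1* or *Ubb*. *Usp20* was at 36.5 CPM in FRAIL1 muscle 5, the muscle that stood apart over all genes, where the next value was 27.7 CPM. *Uchl4* was at 10.6 CPM in Control muscle 5, above the next at 9.32 CPM. *Nedd8* was at 29.4 CPM in Control muscle 6, above the next at 25.9 CPM, and *Usp10* was at 54.6 CPM in the same muscle, below the next at 60.8 CPM.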

How the results depend on the processing

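The log2 fold change of *Uchl1* was 1.46 to 1.58 over 22 alternative fits, and those of *Uchl3*, *Uchl5*, *Bap1* and *Ubb* kept their sign. For the genes called, 974 over all genes became 2186 (1159 higher, 1027 lower) with the replicate block, 2211 with DESeq2, 2875 with DESeq2 and the block, 2305 without both muscles numbered 5 and with the block (chosen after seeing the data), and 364 to 2110 with 1 muscle left out. The lowest was without FRAIL1 muscle 1 and the highest without FRAIL1 muscle 3, and any 1 muscle but FRAIL1 muscle 5 moved the count by over 1.5 times. Of the 5 genes, 1 was called with the block and 2 (with *Bap1*) by DESeq2 with or without the block and without FRAIL1 muscle 3 (1 to 2 with 1 muscle left out). Under these settings in turn, calls among other deubiquitinases went from 5 to 13, 9, 18 and 19, and 2 to 11 with 1 muscle left out. Those among ubiquitin supply and conjugation genes went from 2 to 5, 4, 6 and 6, to 4 without both muscles numbered 5, and 0 to 5 with 1 muscle left out. The cause was not tested. Without single muscles, *Usp5* lost its call without each Control muscle and FRAIL1 muscles 1, 2, 4 and 6 (edgeR adjusted p 0.0568 to 0.0975) and without a filter, *Usp10* without Control muscles 1 to 5 and FRAIL1 muscles 1 and 6 (0.0567 to 0.0705), *Usp34* without Control muscles 1 to 4 and 6 and FRAIL1 muscles 1, 4, 5 and 6 (0.0601 to 0.0928), *Ube2q2* without each Control muscle and FRAIL1 muscles 1, 4 and 6 (0.0538 to 0.0720), and *Mbd6* without each Control muscle and FRAIL1 muscles 1, 4 and 5 (0.0501 to 0.0830). With the longest transcript as length, Control levels were 5.93 (*Uchl1*), 1.88 (*Uchl3*), 15.4 (*Uchl5*), 22.5 (*Bap1*) and 67.7 RPKM (*Ubb*), and with the longest protein-coding transcript 6.56 (*Uchl3*) and 25.1 RPKM (*Bap1*). Of the 5 genes, depth limits *Uchl3* most, at 237 to 443 counts per muscle.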
